A study of Mus musculus with 140 samples.

Results

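The clustered protocadherin genes are arranged in tandem on mouse chromosome 18 as the Pcdha, Pcdhb and Pcdhg families. Members were all protein-coding genes of the GENCODE vM21 annotation whose symbol begins with Pcdha, Pcdhb, Pcdhga, Pcdhgb or Pcdhgc and ends in a number, or in c and a number. There were 57 of them among 54687 annotated genes whose exons were counted. They comprised 14 Pcdha, 22 Pcdhb and 21 Pcdhg genes. The annotation gives the symbol Pcdha11 to 2 genes, ENSMUSG00000007440 and ENSMUSG00000102206, which are named with their identifiers below. On the mm10 build the Pcdha genes run from 36930184, the start of Pcdha1, to the end of the shared Pcdha exons at 37187657, and the shared Pcdhg exons end at 37841873.

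Clustered protocadherins are cell surface adhesion molecules of neurons and some glia. Each neuron switches on its own small set of variable exons by stochastic promoter choice, which gives it a surface identity used in dendrite self-avoidance, axon tiling and synapse formation. Every Pcdha and Pcdhg transcript joins 1 large variable exon, which encodes the extracellular cadherin repeats, the transmembrane segment and a short cytoplasmic stretch, to constant exons that encode a common cytoplasmic domain and carry the 3′ untranslated region (UTR). Pcdhb genes have a variable exon alone. The C-type genes (Pcdhac1, Pcdhac2, Pcdhgc3, Pcdhgc4 and Pcdhgc5) lie nearest to the constant exons and, unlike the others, are broadly expressed in many neurons.

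The study profiled RNA by enhanced crosslinking and immunoprecipitation (eCLIP) of TDP-43, an RNA-binding protein of the nucleus, and of N6-methyladenosine (m6A), a methyl mark on adenosines of messenger RNA. R6/2 mice, which are transgenic for exon 1 of mutant human huntingtin and model Huntington's disease (HD), were set against non-transgenic (NT) littermates at 3 months, without treatment, in cortex and striatum, with 4 males and 4 females per assay, region and genotype. A further m6A experiment used C57Bl/6 males injected into the cerebral ventricles at 5 weeks with PBS or with 500 ug of an oligonucleotide antisense to TDP-43 mRNA (ASO) and collected 2 weeks later, 3 per treatment, with the tissue labelled as cortex but named as striatum in the labels' treatment protocol (the study's methods name both). The values are lists of clusters, stretches of crosslinked RNA called from the reads of 70 immunoprecipitation (IP) libraries, and the 70 input libraries have no list of their own.

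A cluster was counted as enriched when its p against input reads was 0.001 or less. The 70 libraries listed 133211 to 260739 clusters each, of which 4929 to 99049 were enriched. No read depth is in the lists, so these totals are the only measure of yield. Labelled regions were checked against neuronal markers in the NT m6A libraries, where all 15 medium spiny neuron markers were called lower in cortex than in striatum and 9 of 10 cortical excitatory neuron markers were called higher. Tissue was analysed in bulk, so fewer cells of a type and less RNA per cell cannot be told apart. The lists give no RNA level, so more methylated sites and more RNA from a gene cannot be told apart either.

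A base of the annotation belonging to 1 member was counted for that gene and is called variable here. Bases shared by most members of the Pcdha or of the Pcdhg family were counted once for the family as its constant exons. The Pcdha constant exons hold 2860 bases between chr18:37156155-37187657, and the Pcdhg constant exons hold 2119 bases between chr18:37825021-37841873, all on the plus strand. The variable coding exons had a median of 2397 bases, from 2316 to 2562. Pcdhga4 was counted over 1570 bases, less than its variable coding exon of 2418 bases, because stretches that the annotation gives to another Pcdhg gene as well were left out. The members resemble each other in sequence, which matters for placing reads. The share of 50-base words that recur exactly in another member's variable coding exon had a median of 15.0% in Pcdha, 7.14% in Pcdhb and 0.632% in Pcdhg. The share reached 24.7%, in Pcdha7, and was 0 in 10 genes, including Pcdhac1, Pcdhac2 and Pcdhgc5. How the authors placed reads that match several genes is not given in the sources used here, and its part in the results was not tested.

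The first question was where each assay placed its clusters on these genes. By number, most enriched m6A clusters lay on the variable exons and most enriched TDP-43 clusters on the constant exons. The NT cortex m6A libraries held 364 ± 67.6 enriched clusters on variable exons (mean ± SD, n = 8), with a lowest value of 282, a median of 381.5 and a highest of 450. On constant exons the same libraries held 6.5 ± 1.07, from 5 to 8. NT striatum was alike, with 395 ± 39.3 m6A clusters on variable exons (312, 397.5 and 440) against 4.50 ± 1.77 on constant exons (2, 5 and 7). Constant exons thus took 1.79% of the members' enriched m6A clusters in NT cortex and 1.10% in NT striatum, while they make up 2.49% of the exon bases counted (4979 against 194790 variable bases). Per kilobase, the difference was much smaller than by number. NT cortex libraries held 1.87 ± 0.347 m6A clusters per kilobase of variable exon and 1.31 ± 0.215 per kilobase of constant exon, and NT striatum libraries 2.03 ± 0.202 and 0.904 ± 0.356. The Pcdha constant exons alone held 2.27 ± 0.374 per kilobase in NT cortex and 1.57 ± 0.620 in NT striatum.

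The order turned round in TDP-43 eCLIP. NT cortex libraries held 7.0 ± 4.66 TDP-43 clusters on variable exons (lowest 1, median 6.5, highest 15) and 17.5 ± 4.50 on constant exons (12, 17 and 26). NT striatum libraries held 0.875 ± 0.835 on variable exons, from 0 to 2, and 10.4 ± 3.46 on constant exons, from 3 to 14. The constant exons therefore took 74.0% ± 11.5 of the members' TDP-43 clusters in cortex and 93.5% ± 6.33 in striatum. Per kilobase, TDP-43 clusters numbered 0.036 ± 0.024 on variable and 3.51 ± 0.905 on constant exons in NT cortex, and 0.0045 ± 0.0043 and 2.08 ± 0.695 in NT striatum. The highest constant share of an NT m6A library was 2.33%, in cortex. These sums run over the members, so they are given as a description without a test. As a measure of how common such differences were, 88.6% of the 7597 features tested in NT cortex and 88.9% of the 7515 tested in NT striatum differed between the assays by limma at an adjusted p under 0.05, each library being scaled to its own exonic clusters.

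**Figure D1:**
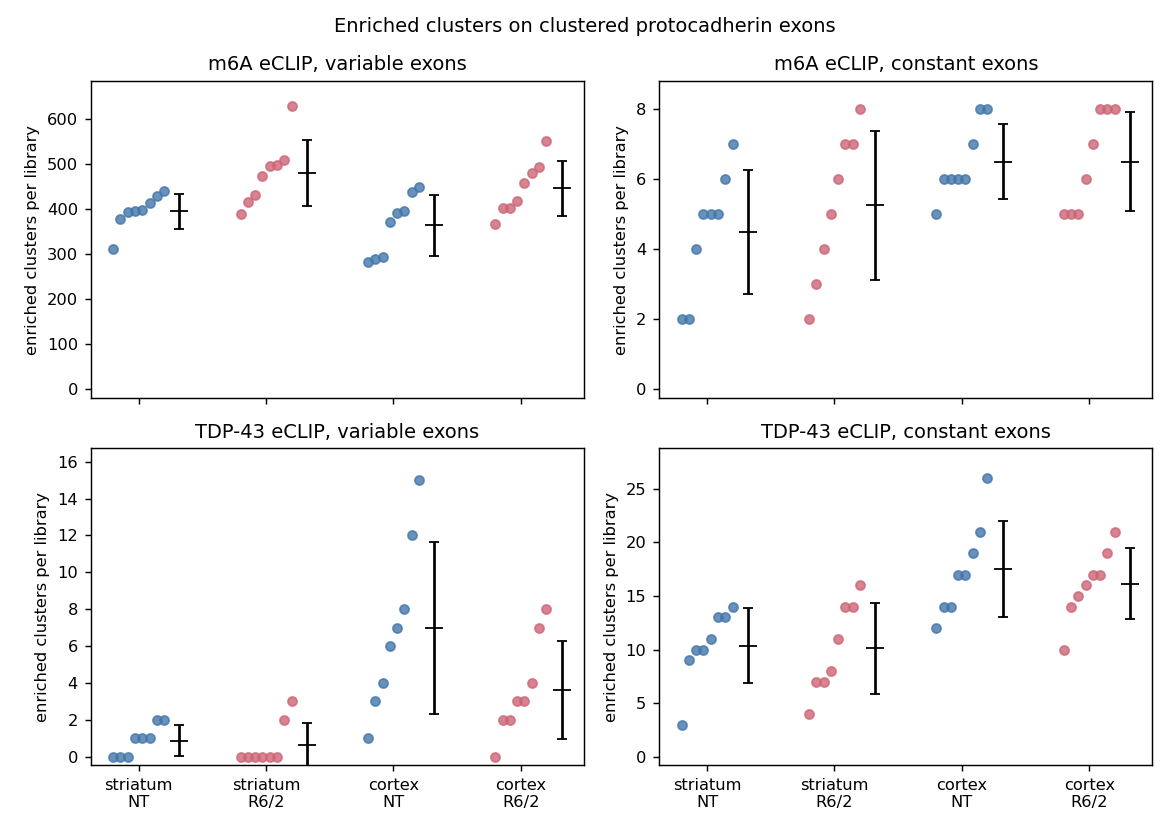
Number of enriched clusters per library (y axis, from 0) on the variable exons (left) and constant exons (right) of the clustered protocadherin genes, for m6A eCLIP (top) and TDP-43 eCLIP (bottom). Each point is a library of NT (blue) or R6/2 (red) mice, ordered by value within its group, and the black bar is the mean ± SD of 8 libraries. m6A libraries hold at least 282 clusters on variable exons and at most 8 on constant exons, whereas TDP-43 libraries hold at most 15 on variable exons and up to 26 on constant exons.

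Both assays listed clusters on both kinds of exon, and they differed in how many of those passed against input. In NT cortex 75.0% ± 7.95 of the listed m6A clusters on variable exons were enriched, compared with 17.5% ± 4.55 on constant exons. For TDP-43 in NT cortex the shares were 2.85% ± 1.88 on variable exons and 56.3% ± 10.5 on constant exons. NT striatum gave 79.6% and 11.7% for m6A and 0.479% and 37.7% for TDP-43, in the same order. Together the members took 0.599% ± 0.0643 of all enriched exonic m6A clusters of an NT cortex library and 0.0632% ± 0.0088 of the enriched exonic TDP-43 clusters.

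The constant exons of the families differed. The Pcdhg constant exons held no enriched m6A cluster in any of the 16 NT libraries or the 8 R6/2 cortex libraries, and 1 cluster in 1 of the 8 R6/2 striatum libraries. They were instead the main TDP-43 feature of the locus, with 12.9 ± 3.18 enriched clusters in NT cortex (9, 12.5 and 18) and 8.25 ± 3.01 in NT striatum (2, 8.5 and 12). The Pcdha constant exons carried both. They held 5 to 8 m6A clusters in NT cortex libraries and 2 to 7 in NT striatum libraries. Their TDP-43 clusters numbered 4.62 ± 1.69 in NT cortex and 2.12 ± 0.991 in NT striatum. By number, most constant-exon TDP-43 clusters lay in the 3′ UTR, where NT cortex held 13.4 ± 3.70 against 4.12 ± 1.13 in coding sequence. NT striatum held 9.12 ± 2.85 against 1.25 ± 1.04. The lengths of the 2 parts are not given here, so these counts cannot be read as a preference per base.

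Within the Pcdha constant exons the 2 assays shared some stretches and differed in others. Counted in bins of 200 bases along the joined exons in NT cortex, an enriched m6A cluster lay at bases 201 to 400 in all 8 libraries, at bases 1001 to 1200 in all 8 and at bases 1601 to 1800 in 7. TDP-43 had none in any NT cortex library in those 3 bins. It occupied bases 801 to 1000 in all 8 libraries, where m6A had a cluster in 1. These contrasts did not hold in every group. At bases 801 to 1000 an enriched m6A cluster lay in 2 of 8 NT striatum libraries and in all 3 PBS libraries, and at bases 201 to 400 TDP-43 had an enriched cluster in 1 NT striatum, 2 R6/2 striatum and 1 R6/2 cortex library. In NT cortex both assays met at bases 401 to 600, with 6 libraries for m6A and 7 for TDP-43, and at bases 601 to 800, with 5 and 7. In the Pcdhg constant exons TDP-43 clusters were present in all 8 NT cortex libraries at bases 201 to 400 and in each of the 4 bins from base 1001 to base 1800. None was found at bases 601 to 800.

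**Figure D2:**
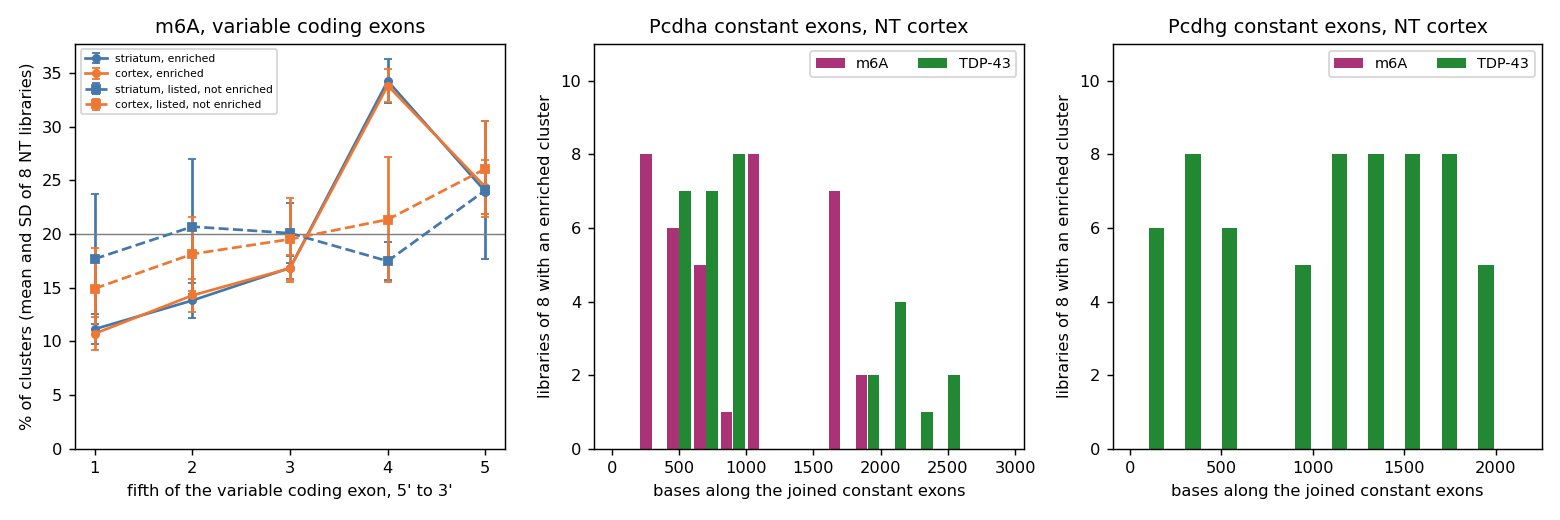
Left, share of m6A clusters (y axis, percent) in each of 5 equal parts of the variable coding exon from 5′ to 3′ (x axis), as mean and SD of 8 NT libraries, for enriched clusters (solid lines) and listed clusters that were not enriched (dashed lines), with a grey line at 20%. Middle and right, number of the 8 NT cortex libraries (y axis) with an enriched m6A or TDP-43 cluster in each 200-base bin of the joined Pcdha and Pcdhg constant exons (x axis, bases). Enriched m6A clusters peak in the fourth part at 33.8% in cortex and 34.3% in striatum, and the Pcdhg constant exons show enriched clusters of TDP-43 alone.

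m6A clusters were not spread evenly along the variable coding exons. Of the enriched clusters in NT cortex, 10.7%, 14.3%, 16.8%, 33.8% and 24.4% fell in successive equal parts from the 5′ to the 3′ end, so that the fourth of 5 parts held most (33.8% ± 1.56 over 8 libraries). NT striatum gave 34.3% ± 2.08 in that part. Listed clusters that were not enriched put 21.3% there in cortex and 17.5% in striatum. R6/2, PBS and ASO libraries kept the peak, with 32.7% to 35.8% of enriched clusters in the fourth part. The few TDP-43 clusters on variable coding exons lay at the other end. In NT cortex 27 of 38 were in the 5′-most part, as were 12 of 15 in R6/2 cortex and 5 of 5 in NT striatum. These clusters were pooled over libraries, and in NT cortex most TDP-43 clusters on variable exons lay on C-type genes, as given below. Listed TDP-43 clusters that were not enriched put 25.7% in the 5′-most part in NT cortex and 28.3% in NT striatum.

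GGAC, the core of the consensus around methylated adenosines, and UGUGU, a form of the UG repeats to which TDP-43 binds, were counted in windows reaching 50 bases to either side of cluster midpoints on the strand of the cluster, with T in place of U. GGAC stood in 66.0% ± 1.25 of the windows of enriched m6A clusters on variable exons in NT cortex and in 51.1% ± 4.27 of those listed but not enriched. Enriched m6A clusters on exons of all other genes had it in 54.4% ± 0.964 of windows. GGACT, which contains GGAC, stood in 27.0% of windows of enriched clusters on variable exons and in 17.7% of those not enriched. TGTGT was found in 13.8% ± 7.70 of windows of enriched TDP-43 clusters on constant exons in NT cortex, in 25.4% of listed ones that were not enriched and in 13.8% of enriched TDP-43 windows on other exons. Per kilobase, GGAC occurred 6.00 times in the variable coding exons, 4.72 times in the Pcdhg constant exons and 1.75 times in the Pcdha constant exons. The constant exons with no enriched m6A cluster in NT mice thus had more GGAC per kilobase than those that did. Across the 57 genes, GGAC per kilobase of variable coding exon was set against NT cortex m6A clusters per kilobase of the gene's own exons. The Spearman correlation was -0.037. The genes share libraries and sequence and are not independent. The 2 densities were taken over different bases, so this value cannot decide whether they go together on the same sequence.

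Levels were compared between genes as enriched m6A clusters per kilobase of each gene's own exons. Between 52 and 54 of the 57 genes had at least 1 enriched cluster in an NT library. In NT cortex 3 of the 5 C-type genes had the highest means, with Pcdhac2 at 5.74 ± 1.10 per kilobase, Pcdhgc3 at 4.99 ± 0.697 and Pcdhgc5 at 4.72 ± 0.835. The other C-type genes ranked 15 (Pcdhgc4, 2.41 ± 0.460) and 22 (Pcdhac1, 2.20 ± 0.751). Pcdhga4 (4.38 ± 0.532) and Pcdhb9 (4.13 ± 0.676) followed, and the median over the 57 genes was 1.85. In NT striatum Pcdhga4 (5.89 ± 0.742), Pcdhgc3 (5.73 ± 1.15), Pcdhac2 (5.49 ± 0.933) and Pcdhgc5 (4.65 ± 0.504) stood at the top and the median was 1.76. Pcdhga4 was counted without the 5′ part of its variable coding exon. Enriched m6A clusters were sparser in the 5′ parts of these exons as a whole, so its rank is not directly comparable with the others.

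At the other end, Pcdha1 and Pcdhb1 had no enriched m6A cluster in any NT library, and Pcdha8 had clusters in 1 of 16. Pcdha8 was at 0 in every NT striatum library and at 0.101 ± 0.285 per kilobase in NT cortex. The order between the ends was shallow. In each region only 1 pair of neighbours in the order of 57 genes was further apart than the SD, so ranks close together are not distinguished. On the scale of clusters per library, Pcdhgc5 had 21, 25.5 and 34 as the lowest, median and highest values in NT cortex and 22, 25.5 and 30 in NT striatum.

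**Figure D3:**
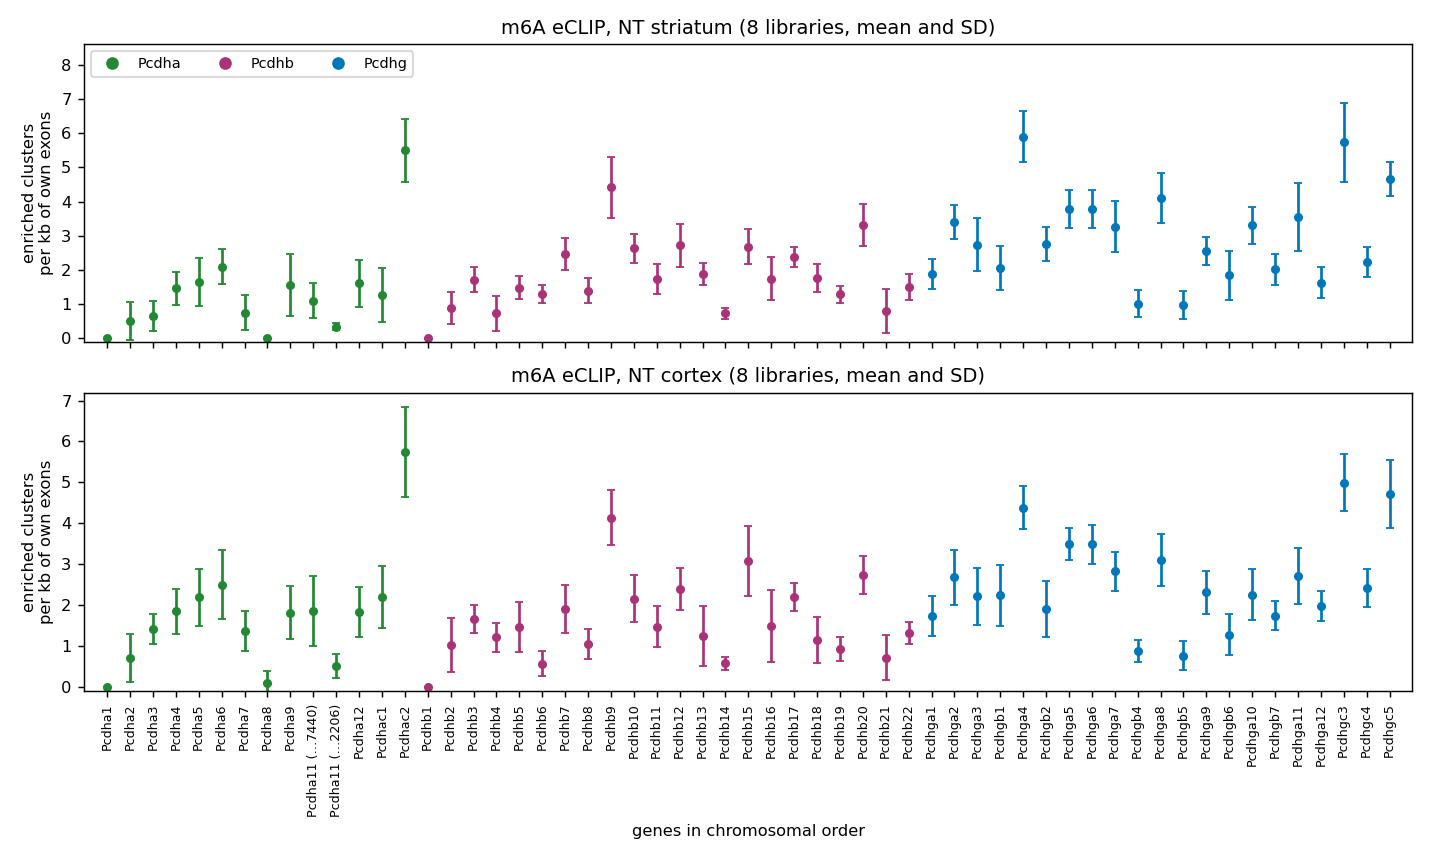
Enriched m6A clusters per kilobase of each gene's own exons (y axis) for the 57 clustered protocadherin genes in chromosomal order (x axis), in NT striatum (top) and NT cortex (bottom), as mean and SD of 8 libraries. Pcdha genes are green, Pcdhb genes purple and Pcdhg genes blue. Pcdhac2, Pcdhb9, Pcdhga4, Pcdhgc3 and Pcdhgc5 stand above 4 clusters per kilobase in both regions, and Pcdha1 and Pcdhb1 lie at 0. Pcdhga4 was counted over 1570 bases, without the 5′ part of its variable coding exon.

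TDP-43 clusters on variable exons concentrated in 2 C-type genes. In NT cortex Pcdhac2, the C-type gene nearest to the Pcdha constant exons, held 3.12 ± 1.89 per library (0, 3 and 6), and Pcdhgc5 held 2.38 ± 1.60 (1, 2 and 6). Pcdhac1 held none in any of the 32 TDP-43 libraries. Over the 8 NT cortex libraries, C-type genes took 48 of the 56 TDP-43 clusters on variable exons.

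The next comparison asked whether m6A clusters differed between R6/2 and NT mice. On variable exons R6/2 striatum libraries held 480 ± 74.0 enriched m6A clusters in all (SD, n = 8; lowest 390, median 485, highest 629) and R6/2 cortex libraries 447 ± 60.6 (lowest 367, median 438.5, highest 552), ranges that overlap those of NT given above. These totals are not scaled to the library and were not tested. Values from here on are enriched clusters divided by a size factor for each library (normalized clusters), and changes are R6/2 minus NT on the log2 scale after adding 0.5, with the standard error (SE) and the Benjamini-Hochberg adjusted p over all features from limma. A feature was called at an adjusted p under 0.05. In R6/2 striatum m6A clusters were called higher on 12 protocadherin genes, none of them C-type, and among these 12 the highest changes were those of Pcdhb2, Pcdha2, Pcdhb4 and Pcdha3. Of 55 protocadherin features tested (54 genes and the Pcdha constant exons), 50 had a change above 0, these 12 were called higher and none was called lower. In the background of 9139 features tested, 9.55% were called, 3.78% were called higher, 5.78% were called lower and 52.6% had a change above 0. The median change was 0.24 over the protocadherin features and 0.016 over all features. An unadjusted p under 0.05 by limma was reached by 25 of the 55, and the share of all features at that level is not given here. Pcdhb21 had a change of 1.13 (SE 0.446), above that of Pcdha3, and was not called (adjusted p = 0.119). Pcdha1, Pcdha8 and Pcdhb1 had too few clusters to be tested in either region.

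Pcdhb2 had the highest change in striatum. Its normalized clusters in NT striatum were 0.925, 2.48 and 5.25 (lowest, median and highest of 8 libraries) and in R6/2 striatum 2.86, 6.81 and 9.97. All 8 R6/2 libraries lay above the NT mean, although the ranges overlapped. The change was 1.30 (SE 0.205, adjusted p = 0.000178). Pcdhb4 followed the same course, with 0.92, 2.46 and 6.04 in NT and 3.37, 6.08 and 8.13 in R6/2, a change of 1.18 (SE 0.245, adjusted p = 0.00275).

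Of the genes of the Pcdha alternate exons (Pcdha1 to Pcdha12, with the paired Pcdha11 genes), 10 were tested and 6 were called. All 10 had a change above 0, with a median of 0.71, from 0.036 in Pcdha12, which was not called. Pcdha3 had 0, 1.59 and 3.02 normalized clusters in NT striatum and 2.11, 3.41 and 5.08 in R6/2 striatum, with a change of 1.05 (SE 0.299, adjusted p = 0.0265). Pcdha2 rose from a median of 1.01 to 2.39, with a change of 1.20 (SE 0.377, adjusted p = 0.0447). The other called members of the group were Pcdha7 (0.95), the Pcdha11 genes ENSMUSG00000007440 (0.90) and ENSMUSG00000102206 (0.89), and Pcdha4 (0.54). These genes start low, at a mean under 5 normalized clusters per NT library, and theirs is the family with the highest share of recurring sequence.

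All 21 Pcdhb genes tested had a change above 0, from 0.039 to 1.30, with a median of 0.28. Beside Pcdhb2 and Pcdhb4, Pcdhb3 (0.47, adjusted p = 0.021) and Pcdhb13 (0.39, adjusted p = 0.032) were called. Pcdhb3 rose from a median of 6.91 (4.14 to 7.79) to 9.07 (6.85 to 11.4). Of the 18 Pcdhga and Pcdhgb genes, 16 had a change above 0, with a median of 0.16, and Pcdhgb1 (0.49, adjusted p = 0.0417) and Pcdhgb7 (0.43, adjusted p = 0.0321) were called. The 5 C-type genes had a median change of -0.001, from -0.22 in Pcdhac1 to 0.046, and none was called. Pcdhgc5, with 22.1, 25 and 31.5 in NT striatum and 19.5, 22.7 and 27.4 in R6/2 striatum, had a change of -0.19 (SE 0.0799, adjusted p = 0.155). The Pcdha constant exons had a change of 0.13 and were not called (adjusted p = 0.762).

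**Figure D4:**
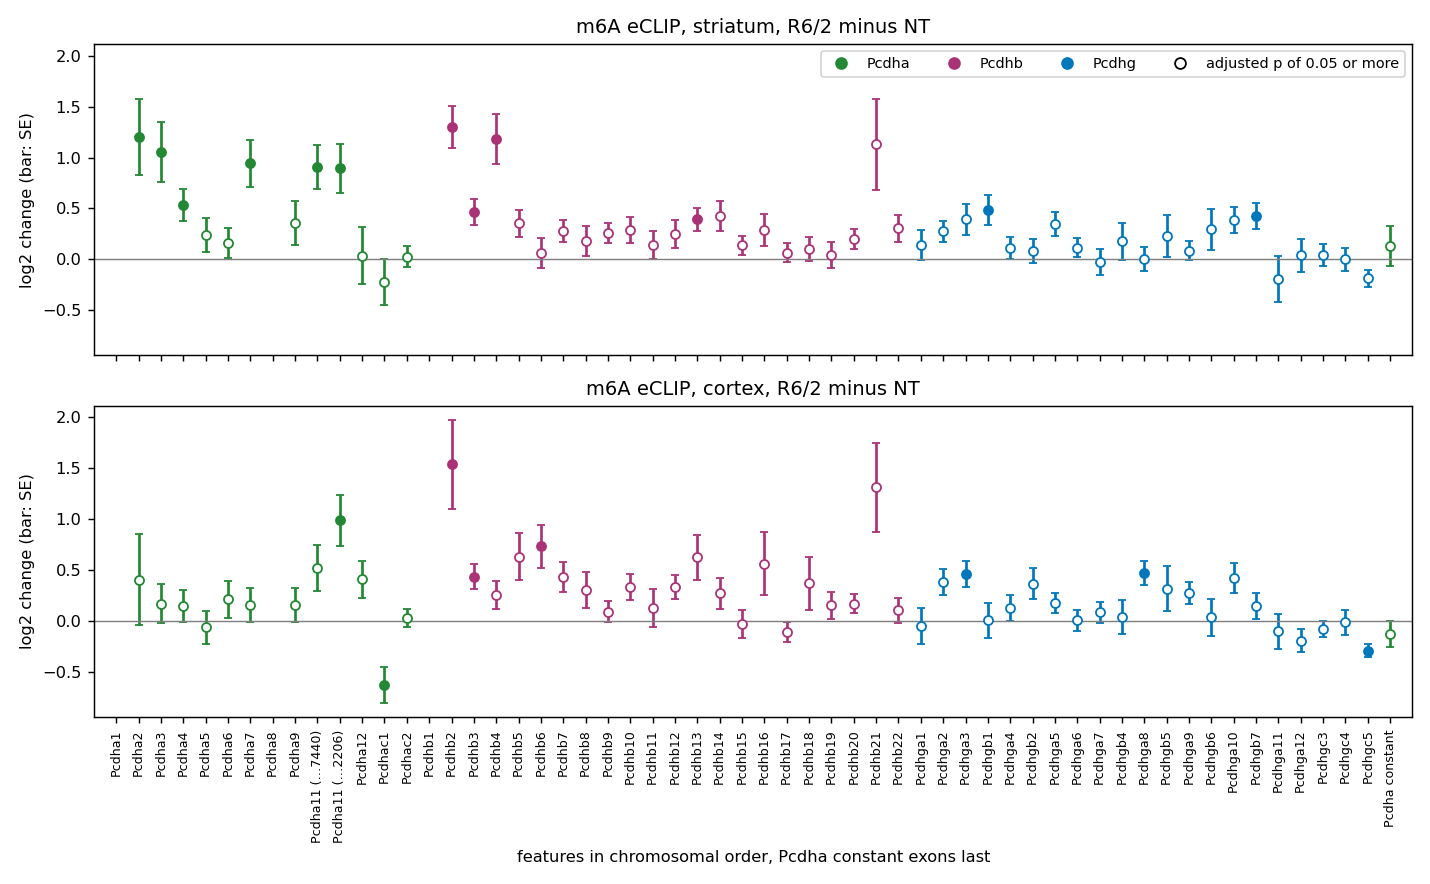
log2 change of normalized enriched m6A clusters, R6/2 minus NT (y axis, bar: SE), for each gene in chromosomal order with the Pcdha constant exons last (x axis), in striatum (top) and cortex (bottom). Filled points have an adjusted p under 0.05 by limma over all features, open points do not, and genes with no point were not tested. In striatum 12 features are called, all higher, and in cortex 6 features are called higher and Pcdhac1 and Pcdhgc5 lower.

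In R6/2 cortex the same contrast gave fewer calls, of both signs. Of 55 features tested, 44 had a change above 0, 6 were called higher and 2 lower, against a background with 53.5% above 0 and 6.22% of 8553 features called, 2.48% higher and 3.74% lower. The median change was 0.17 over the protocadherin features and 0.021 over all features. An unadjusted p under 0.05 by limma was reached by 20 of the 55, again without the share of all features. Pcdhb2 again had the highest change, with 0, 3.57 and 5.05 in NT cortex and 3.08, 7.33 and 9.97 in R6/2 cortex (1.54, SE 0.437, adjusted p = 0.0375). All 8 R6/2 libraries lay above the NT mean. The other features called higher were Pcdha11 ENSMUSG00000102206 (0.99), Pcdhb6 (0.73), Pcdhga8 (0.47), Pcdhga3 (0.46) and Pcdhb3 (0.44). Pcdhb21 had a change of 1.31 with an SE of 0.437 and was not called (adjusted p = 0.0762).

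The cortical features called lower were both C-type. Pcdhgc5 had 22.9, 26.2 and 31.6 normalized clusters in NT cortex and 20.5, 21.5 and 23.3 in R6/2 cortex, and all R6/2 values were below the NT mean of 26.7. Its change was -0.29 (SE 0.0674, adjusted p = 0.0105). Pcdhac1 had 3.30, 5.83 and 8.0 in NT cortex and 2.03, 3.23 and 5.28 in R6/2 cortex, a change of -0.63 (SE 0.173, adjusted p = 0.0319). Pcdhac2, one of the members with most clusters per kilobase, was not called in either region.

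The regions were then set against each other. Of the 55 features tested in both, 43 had a change above 0 in both and 4 below 0 in both, and 3 were called in both: Pcdhb2, Pcdhb3 and Pcdha11 ENSMUSG00000102206. The shares of all features that moved alike or were called in both regions are not given here. These joint counts can therefore not be set against a background. The cortical and striatal libraries of a genotype may come from the same mice, which the labels do not say. No protocadherin feature had an R6/2 effect that differed between striatum and cortex in the interaction test (lowest adjusted p = 0.288 by limma, 6 with an unadjusted p under 0.05), where 21 of all 8764 features were called. None differed between the sexes either, with the lowest adjusted p by limma at 0.759 in striatum and 0.990 in cortex, and 4 and 2 features at an unadjusted p under 0.05. For these interaction tests the share of all features at an unadjusted p under 0.05 is not given here. In NT striatum Pcdhac1 and Pcdhb4 varied with sex by eye, and values are given here for Pcdhac1 only. The 4 NT males had 4.03 to 6.30 normalized clusters of Pcdhac1 and the 4 NT females 0.92 to 1.95. This contrast was noticed in the plotted values and has no test, and the share of all features that separate by sex is not given here. Sex went with the number of listed clusters, with 143693 to 168252 in the NT striatum males and 178879 to 198657 in the females. Enriched clusters overlapped, with 67512 to 72341 in these males and 67802 to 76723 in these females. Sex and the number of listed clusters cannot be told apart here.

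**Figure D5:**
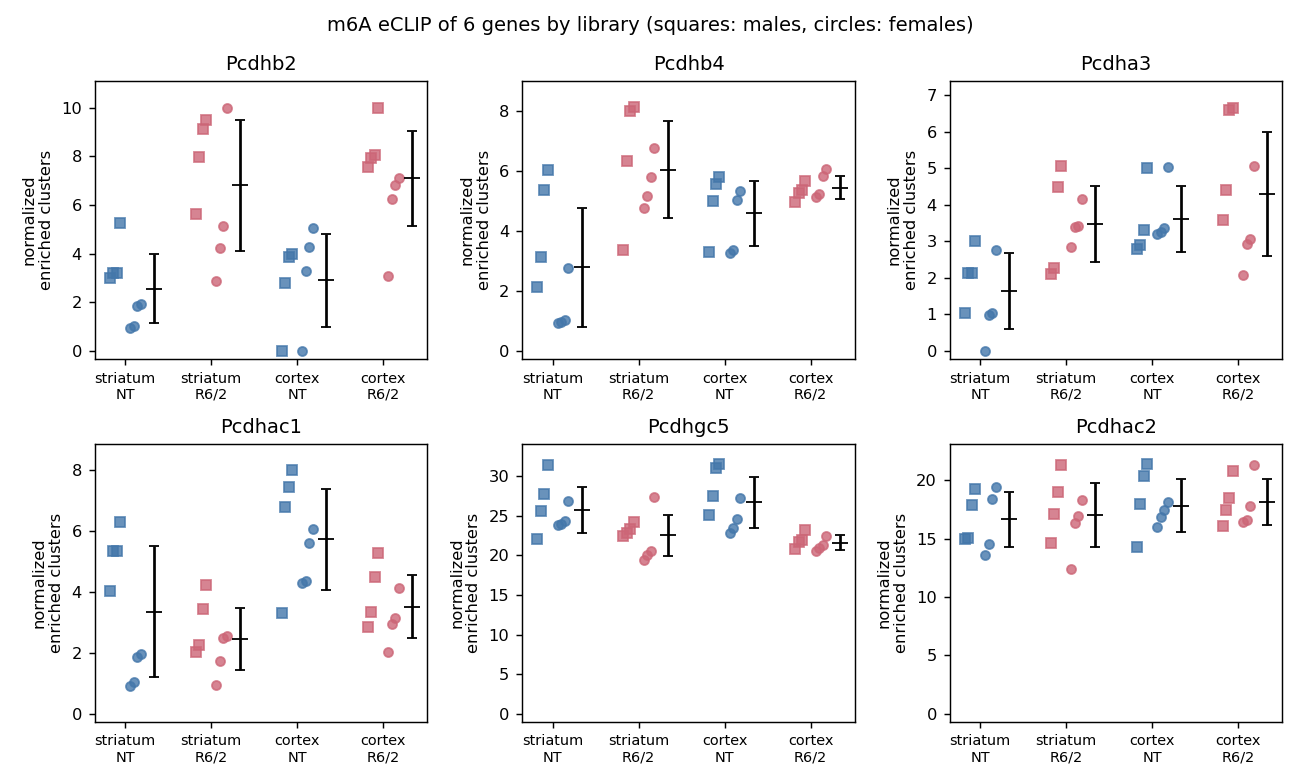
Normalized enriched m6A clusters per library (y axis, from 0) of Pcdhb2, Pcdhb4, Pcdha3, Pcdhac1, Pcdhgc5 and Pcdhac2 in striatum and cortex of NT (blue) and R6/2 (red) mice. Squares are males, circles are females, and the black bar is the mean ± SD of 8 libraries. Pcdhb2 is higher in R6/2 in both regions, with means of 2.55 and 6.81 in striatum and 2.91 and 7.10 in cortex, while Pcdhgc5 is lower in R6/2 cortex.

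The number of enriched clusters and the strength of enrichment behaved differently. The median log2 fold over input of all clusters listed on a feature was 2.27 in NT striatum and 2.28 in R6/2 striatum at the median member. Its difference between genotypes had a median of 0.005 over 54 features in striatum and of 0.0004 over 55 in cortex, and none was called. In the background 0.128% of 10934 features were called by this measure in striatum and 0 of 10922 in cortex. Neighbouring clusters in these lists often abut, so that 1 long enriched stretch can be counted as several clusters. With abutting clusters merged, the median change kept its size, at 0.23 in striatum and 0.21 in cortex, and 2 and 1 features were called. The counts also depended on how clusters were chosen. With all listed clusters 1 feature was called in striatum and 1 in cortex, and under the stricter thresholds of the study (p under 0.001 and log2 fold above 3), which left 22 and 24 features to test, none was called. For merged, listed and stricter clusters the share of all features called is not given here. The lower counts of calls can therefore not be set against a background.

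Some library values differed along with the genotype. R6/2 cortex m6A libraries held 68900 ± 6497 enriched clusters and NT ones 62827 ± 5376 (exact permutation within sex, adjusted p = 0.0352). In striatum the numbers were 73810 ± 9464 and 71404 ± 3822 (exact permutation, adjusted p = 0.408). The size factors divide by such differences, and their remaining part in the changes was not tested. Markers of medium spiny neurons, the main neuron type of striatum, were lower in R6/2: 13 of 15 were called lower in striatum (median -0.59), and their summed normalized clusters ran from 318 to 385 in NT and from 218 to 238 in R6/2, with no marker at 0 in all libraries. In cortex 7 of 13 were called lower (median -0.41). The part of this in the protocadherin changes was not tested.

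Of the other marker lists, 2 of 7 astrocyte genes tested were called lower in each region, Slc1a2 in both, with summed clusters of 105 to 123 in NT and 93.0 to 110 in R6/2 striatum and Aldh1l1 at 0 in all libraries. No marker of cortical excitatory neurons, GABA interneurons, oligodendrocytes or microglia was called in either region. The median changes of these lists in striatum were 0.044, -0.27, -0.061 and -0.18, and in cortex -0.10, -0.24, -0.053 and -0.068. GABA interneuron markers summed to 14.7 to 27.2 in NT striatum and 13.6 to 21.7 in R6/2 striatum, with Vip at 0. Microglia markers summed to 38.5 to 47.7 and 35.2 to 45.7 in these groups.

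Related gene lists gave a frame for the protocadherin changes. Non-clustered protocadherins and large cadherins, adhesion molecules of the same superfamily, had 17 of 19 genes with a change above 0 in R6/2 striatum and a median of 0.18, and Pcdh20 (0.54), Pcdh18 (0.73), Dchs1 and Pcdh11x were called higher. In cortex 13 of 19 had a change above 0 (median 0.046), and Pcdh17 and Fat1 were called higher. Regulators of protocadherin promoter choice, such as CTCF, cohesin subunits and DNA methylation enzymes, had 14 of 16 above 0 in striatum (median 0.16) and 13 of 16 in cortex (median 0.24). Stag1, a cohesin subunit, rose in both regions, by 0.95 in striatum (adjusted p = 0.00484) and 1.67 in cortex (adjusted p = 0.00681), as did Tet2, which oxidizes methylated cytosine (0.38 and 0.66).

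Processing and signalling genes had 8 of 18 above 0 in each region, with medians of -0.092 and -0.040. In striatum Adam10, a sheddase that cleaves protocadherin ectodomains, was called higher (0.44) and Wasf1, a subunit of the WAVE complex, lower (-0.54), and in cortex Marcks was called higher (0.56). The study takes a striatal HD signature from other mouse data. From RNA sequencing of the HD model used here, it reports the signature genes as changed in striatum, nearly all in the anticipated direction. It describes the cortex as generally similar. Among the signature genes marked as going up are 9 Pcdhb genes. The part of their RNA level in the m6A clusters was not tested. All 9 Pcdhb genes had a change in m6A clusters above 0 in both regions, with medians of 0.30 and 0.44 and 2 called in each region, whereas all 21 Pcdhb genes tested had medians of 0.28 and 0.34.

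TDP-43 clusters on the constant exons showed no difference by genotype that passed the test. In striatum the constant exons of both families could be tested and neither was called, where 14.4% of 2128 features were. The Pcdhg constant exons had 4.90, 7.0 and 8.10 normalized TDP-43 clusters in NT and 5.50, 7.55 and 9.96 in R6/2 (0.10, SE 0.158, adjusted p = 0.736). The Pcdha constant exons had 0.79, 1.86 and 2.79 in NT and 0.797, 2.73 and 3.30 in R6/2 (0.27, SE 0.304, adjusted p = 0.623). The groups overlapped throughout.

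In cortex 4 features could be tested and none was called, where 7.57% of 3631 features were. The Pcdhg constant exons had 9.67, 10.8 and 13.8 in NT and 9.34, 12.2 and 17.7 in R6/2 (0.16, SE 0.125, adjusted p = 0.469), and the Pcdha constant exons a change of 0.15 (SE 0.206, adjusted p = 0.705). The 2 C-type genes with enough TDP-43 clusters to be tested had negative changes that missed the threshold. Pcdhgc5 had 1.09, 1.78 and 3.90 in NT and 0, 1.21 and 1.79 in R6/2 (-0.78, SE 0.390, adjusted p = 0.240), and Pcdhac2 had 0, 2.69 and 4.84 and 0, 1.41 and 3.39 (-0.75, SE 0.511, adjusted p = 0.407). None of the 4 features reached an unadjusted p under 0.05. Under the stricter thresholds of the study 1 of 3 features tested was called, higher in R6/2. At 1 to 6 clusters per NT library of Pcdhgc5, small differences were not detectable.

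R6/2 TDP-43 libraries stood apart in other ways. The striatal lists ran to 213284 ± 36507 clusters in R6/2 and 158710 ± 14849 in NT, and introns took 33.0% ± 11.1 of the former and 20.3% ± 4.16 of the latter (exact permutation within sex, adjusted p = 0.0153 for each). In cortex they listed 221048 ± 14387 against 198419 ± 12893 (exact permutation, adjusted p = 0.0352). Without the striatal R6/2 libraries that had at least 30% of their clusters in introns, neither constant exon feature was called. Medium spiny neuron markers were lower here as well, 10 of 14 called in striatum and 5 of 7 in cortex, with summed clusters of 132 to 262 in NT and 68.8 to 100 in R6/2 striatum and Tac1 at 0 in all striatal libraries. Their part was not tested. Among genes of the pathway lists, 4 of 9 processing and signalling genes were called lower in striatum and 4 of 14 in cortex, Prkcb and Ptk2b in both, and 1 was called higher in cortex. Of the non-clustered cadherins 1 rose and 1 fell in striatum and 2 fell in cortex, Fat3 falling in both, and of the regulators Rad21 was called, higher in striatum, and none in cortex. Of the remaining marker lists none was called in striatum, and in cortex 1 excitatory neuron gene and 1 GABA interneuron gene were called lower.

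Between the regions of NT mice, 5 of the 11 Pcdha genes tested were called higher in cortex and none lower. Of 54 features tested, 8 were called higher in cortex and 1 lower, against 18.0% of 8718 features called, 8.73% higher and 9.30% lower, so the members were not called more often than the background. All 9 tested of the Pcdha alternate genes had a change above 0, with a median of 0.47 and 4 called, whereas the Pcdhb and the Pcdhga and Pcdhgb genes had medians of -0.090 and -0.086. Pcdha3 had 0, 1.49 and 2.82 normalized clusters in striatum and 2.84, 3.33 and 5.14 in cortex. Its groups did not overlap, as was the case, with cortex higher, for 2.47% of all features, and the change was 1.21 (SE 0.289, adjusted p = 0.00429). Pcdhac1 (0.99), Pcdha7 (0.93), Pcdhb4 (0.93), Pcdha11 ENSMUSG00000007440 (0.78), the Pcdha constant exons (0.72), Pcdha5 (0.55) and Pcdhga12 (0.45) were also called higher in cortex.

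Pcdhb6 was the exception, with 3.58, 4.25 and 6.57 in striatum and 1.01, 2.20 and 3.79 in cortex (-0.99, SE 0.208, adjusted p = 0.00132). Counted as bases covered by enriched clusters, 11 features were called, 2 higher and 9 lower. Of these, 2 were among the 9 called by number of clusters. The features called, and the balance of directions among the calls, thus differed between the measures. The share of all features called by covered bases is not given here. Beside these changes, oligodendrocyte markers were lower in cortex (6 of 9 called, median -0.52), with summed clusters of 79.1 to 111 against 109 to 143 in striatum, and their part was not tested. Of the astrocyte, GABA interneuron and microglia markers none was called. Of the non-clustered cadherins 8 of 19 were called higher and 1 lower, of the regulators 2 of 16 lower, and of the processing genes 1 of 18 higher.

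TDP-43 clusters of the constant exons did not pass the test between the regions. Of all 3016 features 53.0% did, mostly higher in cortex, with a median change of 0.68. The Pcdhg constant exons had 7.15, 9.99 and 11.7 normalized clusters in striatum and 7.92, 8.94 and 11.7 in cortex (-0.051, SE 0.134, adjusted p = 0.755). The Pcdha constant exons had 1.12, 2.68 and 3.94 in striatum and 2.38, 3.26 and 4.72 in cortex (0.31, SE 0.249, adjusted p = 0.291). Scaled instead to total enriched clusters, 1 of 2 features tested was called, lower in cortex. NT cortex libraries held 38635 ± 8472 enriched clusters and NT striatum libraries 17843 ± 6081, which accompanies the higher raw numbers in cortex given above. Of the non-clustered cadherins 5 of 7 were called higher in cortex and 1 lower, of the regulators 3 of 10 higher, and of the processing genes 8 of 14 higher.

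The last comparison asked how m6A clusters on these genes differed after ASO against TDP-43. m6A clusters on Tardbp, the targeted gene, checked the labels: its libraries held 18, 17 and 25 enriched clusters with PBS and 7, 8 and 9 with ASO (-1.12 on normalized values, SE 0.138, adjusted p = 0.00335). Clusters appear to have been called once for each treatment, since the 3 ASO libraries listed 233567 to 233590 clusters and the 3 PBS libraries 251961 to 251972. The libraries of a treatment then share their intervals, the SE leaves out that source of error, and adjusted p values are too small. With 3 against 3, an exact permutation test of a single value cannot go below p = 0.1.

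After ASO fewer m6A clusters were found on 9 protocadherin features and more on 2, of 56 tested. That is below the background, in which 31.3% of 9628 features were called, 17.6% lower and 13.7% higher. Of the 18 Pcdhga and Pcdhgb genes tested 6 were called lower and 2 higher. Pcdhga3 fell most, from 11, 12 and 12 enriched clusters with PBS to 6, 6 and 7 with ASO, with normalized means of 11.1 ± 1.01 and 6.62 ± 0.514 (-0.70, SE 0.0902, adjusted p = 0.00375). The groups did not overlap, which held with ASO lower for 25.9% of all features.

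Pcdhb9 had 18.1, 18.3 and 19.7 normalized clusters with PBS and 12.4, 12.6 and 14.9 with ASO (-0.48, adjusted p = 0.00851). Pcdhgc5 had 35.3, 38.5 and 39.4 with PBS and 29.9, 31.4 and 31.9 with ASO (-0.28, adjusted p = 0.0109). The others called lower were Pcdhga5 (-0.49), Pcdhga10 (-0.44), Pcdhb17 (-0.39), Pcdhga1 (-0.33), Pcdhga6 (-0.31) and Pcdhga7 (-0.26). Pcdhgb2 had 3.85, 3.94 and 4.52 with PBS and 5.15, 5.31 and 6.28 with ASO (0.40, adjusted p = 0.0379), and Pcdhga8 had 9.05, 9.63 and 9.84 with PBS and 10.5, 12.8 and 13.4 with ASO (0.34, adjusted p = 0.0459). Pcdhac1, at 8.86, 9.05 and 9.63 with PBS and 3.19, 5.15 and 7.33 with ASO, had the largest negative change without being called (-0.82, SE 0.265, adjusted p = 0.0614).

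Counted as covered bases 1 feature was called, and the share of all features called by that measure is not given here. None was called by the median fold over input, where 0.829% of 15441 features were. The Pcdhg constant exons, which had no m6A cluster enriched over input in NT mice, held 0, 1 and 4 enriched clusters in the PBS libraries and 2, 2 and 3 in the ASO libraries. On variable exons the raw totals were 447, 452 and 466 with PBS and 357, 388 and 395 with ASO, while the libraries held 89867 to 99049 enriched clusters with PBS and 82471 to 84542 with ASO. Among the lists, 7 of 19 non-clustered cadherins were called higher and 4 lower, 4 of 13 regulators higher and 1 lower, and 4 of 19 processing genes higher and 5 lower. Astrocyte markers had 1 called higher and 3 lower of 7, oligodendrocyte markers 2 lower of 9, microglia markers 2 higher of 7, and medium spiny neuron and cortical excitatory neuron markers 1 higher each. Summed clusters were 109 to 120 with PBS and 106 to 114 with ASO for astrocyte markers, and 51.6 to 56.1 and 56.7 to 60.7 for microglia markers. Their part in the protocadherin values was not tested.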

How the data were processed

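The cluster lists were deposited by the authors, who prepared libraries with ECLIPSEBIO kits and called clusters with CLIPper on mm10. Per the file headers and values, each list holds positions together with the −log10 p and the log2 fold (IP relative to input), which the authors computed and deposited and which served here to select clusters. The aligner is not given in the sources used here. Cluster ends lay inside all 21 GRCm38 chromosomes compared. The midpoint and strand of a cluster decided its exon in GENCODE vM21. At the protocadherin locus exons of other genes were ignored (Gm42416 shares 2410 bases with Pcdha4), and stretches given to exactly 2 Pcdha or 2 Pcdhg genes were left out, which departs from the written design. Counting them as constant exons was run as an alternative.

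Enriched clusters (p of 0.001 or less) per feature were divided by median-ratio size factors and fitted as log2 values with 0.5 added with limma 3.58.1 (lmFit and eBayes with trend, two-sided, sex as covariate except for ASO), for features with 2 or more clusters in at least 50% of libraries. The comparison of assays scaled libraries to their enriched exonic clusters instead. Benjamini-Hochberg adjustment covered all features tested. The fit was tested on simulated data. For totals of libraries, an exact two-sided permutation test exchanged genotypes within each sex (4900 labelings, or 20 for ASO), adjusted over 15 tests. Per the study's methods the R6/2 and NT replicates were 4 animals of each sex, and the study describes the ASO replicates as mice.

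Members, gene lists, tests and most alternatives were chosen with earlier results of these data known. The lists were non-clustered protocadherins and large cadherins, regulators of promoter choice, processing and signalling genes, signature members and 6 marker lists. Values of some single genes of these lists are not reported here. Every protocadherin feature could be named, with full statistics for those called and for the 3 highest and 3 lowest changes. Merging of abutting clusters, the median fold over input and the counting of doubly annotated stretches were added after the data were seen. Calculations used Python 3.11.15, NumPy 2.4.6, SciPy 1.17.1, matplotlib 3.10.9 and R 4.3.3.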

Additional observations from a re-analysis of the deposited data

Results flagged for a closer look

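In 8 of 118 groups of 8 libraries examined (6.78%), 1 library stood further from the rest than Dixon's critical share of the range. For independent normal values chance gives about 1 in 20. These groups are counts with ties and zeros, and some sums contain others, so the share cannot be set against that rate. Among single genes, the highest NT cortex library had 3.90 normalized TDP-43 clusters of Pcdhgc5 with 2.42 in the next. The highest NT striatum library had 4.27 normalized m6A clusters of Pcdha2 with 2.01 in the next, and the lowest had 3.11 of Pcdhgb7 with 4.87 in the next. Among raw sums, 1 NT striatum library had 122 m6A clusters on Pcdhb variable exons with 150 in the next lowest, and 1 NT striatum library had 3 TDP-43 clusters on constant exons with 9 in the next lowest. In R6/2 striatum 1 library had 1 m6A cluster on the Pcdhg constant exons and 1 had 1 TDP-43 cluster on Pcdha variable exons, with 0 in the others. In R6/2 cortex 1 library had 3 TDP-43 clusters on Pcdhb variable exons, with 1 in the next.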

How the results depend on the processing

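The calls depended on how clusters were counted, and the causes were not tested. Except where stated, the share of all features called under each setting is not given here. A count of calls in this section can then not be set against its background. In R6/2 striatum m6A, the 12 calls became 5 with covered bases, 2 with abutting clusters merged, 1 with all listed clusters, 0 under the thresholds of the study, 0 with the median fold over input, 2 in males alone and 5 in females alone. In R6/2 cortex m6A, the 8 calls became 1 with abutting clusters merged, 1 with all listed clusters, 0 under the thresholds of the study, 0 with the median fold, 0 in males alone, 0 in females alone and 3 with the intronic share as a covariate. In the ASO comparison the 11 calls became 1 with covered bases, 7 with the replicate block, 1 merged, 39 (7 higher, 32 lower) with all listed clusters, 4 at p of 1e-10 or less, 0 under the thresholds of the study and 0 with the median fold. The 39 calls carry no weight as a test. Libraries of a treatment share nearly the same listed clusters, so these counts hardly vary within a treatment. The regional m6A comparison went from 9 calls to 3 merged and 0 with the median fold. TDP-43 gave 1 call in R6/2 cortex under the thresholds of the study, higher in R6/2, of 3 features tested. In the regional comparison it gave 1 when scaled to totals, lower in cortex, and 2 with a filter on the mean, both higher. The median fold gave 9, all higher in cortex, where 51.6% of all 7686 features were called. Clusters at p of 1e-10 or less gave 13 calls in striatum and 10 in cortex, of which 2 and 3 were among those called with all enriched clusters.

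Leaving out 1 library gave 7 to 15 calls in striatum m6A, 7 without NT male replicate 3. In cortex m6A the range was 3 to 8, with 3 without R6/2 female replicate 3 or 4, 4 without R6/2 male replicate 2 or NT female replicate 2, and 5 without R6/2 male replicate 1, 3 or 4 or R6/2 female replicate 1. In the ASO comparison it was 5 to 11, with 5 without PBS replicate 2, 6 without PBS replicate 1 or ASO replicate 2, and 7 without ASO replicate 1. Samples were not treated as paired by replicate number, since in no comparison did every pair of deviations correlate above 0.1. That rule cannot exclude pairing. In TDP-43 striatum 4 of 8 pairs lay above 0.1 (highest 0.446), as did 4 of 8 in the TDP-43 regional comparison (highest 0.276). Apart from ASO the replicate block left each count of calls within 1.5 times.

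Several single changes turned sign. For Pcdhg constant exons TDP-43 in striatum was -0.12 with all listed clusters and -0.15 in females, and in cortex -0.029 with covered bases and -0.054 in females. For Pcdha constant exons TDP-43 in striatum was -0.031 with all listed clusters, and in cortex -0.070 merged and -0.060 at p of 1e-10. TDP-43 of Pcdhac2 in cortex was 0.11 in males, m6A of Pcdhac1 in striatum 0.32 in females and m6A of Pcdhgc5 in cortex 0.23 under the thresholds of the study. After ASO, Pcdhga5 was 0.093 and Pcdhga10 0.014 with covered bases, Pcdhga1 0.19 merged, and with all listed clusters Pcdhb13 was -0.42 and the Pcdhg constant exons -0.24. At p of 1e-10 after ASO, Pcdhb17 was 0.32, Pcdhga1 0.88 and Pcdhga6 0.010, and under the thresholds of the study Pcdhga6 was 0.12 and Pcdhga7 1.17. Pcdhb4 after ASO ranged from -1.39 to 0.38 when 1 library was left out, 0.38 without ASO replicate 1. Between regions in TDP-43, Pcdha constant exons were -0.034 scaled to totals and Pcdhg constant exons 0.14 with covered bases. Between assays, Pcdha constant exons were 0.41 in cortex and 0.47 in striatum with median-ratio factors.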
